A study of Mus musculus with 36 samples.

Results

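The comparison described here set dimethyl fumarate (DMF) against monomethyl fumarate (MMF) in lipopolysaccharide (LPS)-activated BV-2 microglia after 24 h. It used 6 of the 36 libraries of the series, which the rule took by their group, namely 3 libraries of LPS with DMF and 3 of LPS with MMF, and all genes. BV-2 is an immortalised mouse microglial line, so the libraries came from 1 line and not from animals, and the labels describe 3 repeats of each experiment. Both groups received LPS at 600 ng/mL and their ester at 30 µM, with the vehicle at 0.2%, so dose and time were matched between the esters. DMSO was the vehicle of both esters, and serum was lowered before treatment. The reference groups, of 3 libraries each, were LPS with vehicle but no ester for 24 h, DMSO with neither LPS nor ester for 24 h, and LPS with each ester at the same doses for 4 h. Fits of all 6 groups at 24 h also took ethanol vehicle without LPS and LPS with cannabidiol (CBD) at 6 µM. The question of the comparison was whether the esters differ in their effect on transcripts of activated microglia.

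DMF carries a methyl ester on each carboxyl group of fumaric acid, whereas MMF carries a methyl ester on only one of them and keeps the other as a free acid. Fumarate esters react with cysteines, among them those of Keap1, the protein that holds the transcription factor Nrf2 for degradation, and freed Nrf2 turns on antioxidant and glutathione genes. LPS binds Toll-like receptor 4 and, through NF-kB and interferon signalling, turns on cytokine, chemokine and antiviral genes in microglia, the resident macrophages of the brain. Macrophages also tie their sterol synthesis, driven by SREBP2, and their sterol export, driven by the liver X receptor (LXR), to their activation state.

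The DMF libraries held 15100758 to 22774814 counted reads and the MMF libraries 16128218 to 21670051. The DMF libraries detected 15150 to 15506 genes with at least 1 read and the MMF libraries 14766 to 14999, so the groups did not overlap in that number. Mitochondrial genes took 2.05 to 2.24% of the reads. Microglial markers were abundant, with a summed level over 18 listed genes of 36085 to 44399 normalized counts under DMF and 32587 to 44510 under MMF, led by Csf1r, the receptor for colony-stimulating factor 1. Siglech, a marker of resident microglia, had at most 0.831 normalized counts in any library, and Cx3cr1, the fractalkine receptor, stood at 144 to 327. Of 5 lists of other cell types, astrocyte markers summed to 5.98 to 18.8 normalized counts under DMF and 9.30 to 17.4 under MMF, and T and B cell markers to 19.8 to 24.3 and 11.4 to 19.7. Fibroblast and endothelial markers summed to 119.6 to 174 under DMF and 137 to 171 under MMF. Neuron markers summed to 85.4 to 181 and 213 to 235, of which Map2, a microtubule protein of dendrites, held 88.9%, while the neuron-defining Rbfox3 was at or under 0.791. Oligodendrocyte markers summed to 1212 to 1314 and 1132 to 1384, of which Mbp held 95.8%, while the lineage factor Sox10 was at or under 4.75. Map2 was the only gene of these 5 lists to pass the test, at 149, 103 and 68.8 normalized counts under DMF and 217, 221 and 196 under MMF, and its part in other results was not tested.

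DMF and MMF differed at 24 h in 2508 of 11665 genes, which is 21.5% of the genes tested (limma on log2 of the normalized count plus 1, Benjamini-Hochberg adjusted p below 0.05, here called). Under DMF 1173 of them (10.1%) were higher and 1335 (11.4%) lower than under MMF. All called genes moved the same way in 3 of 3 same-numbered pairs of libraries, and in 2449 of them all 3 DMF libraries lay on 1 side of all 3 MMF libraries. The genes were called on these same libraries, so neither number is independent of the call. Over all tested genes the groups did not overlap in 4588, or 39.3%. The differences were mostly small, with a median absolute log2 fold change of 0.44 among called genes, and 1484 of these lay under 0.50. Beyond an absolute log2 fold change of 1, 162 genes were higher under DMF and 75 lower, so the balance turned the other way. Same-numbered libraries deviated together, least so for replicate 3, and the fit with the replicate number as a block is given beside these counts. It called 4639 genes (2157 higher, 2482 lower), among them all 2508. Single libraries decided many calls, since leaving out DMF replicate 3 gave 962, leaving out MMF replicate 3 gave 1276, and leaving out MMF replicate 1 or DMF replicate 2 gave 1417 or 1456.

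**Figure D1:**
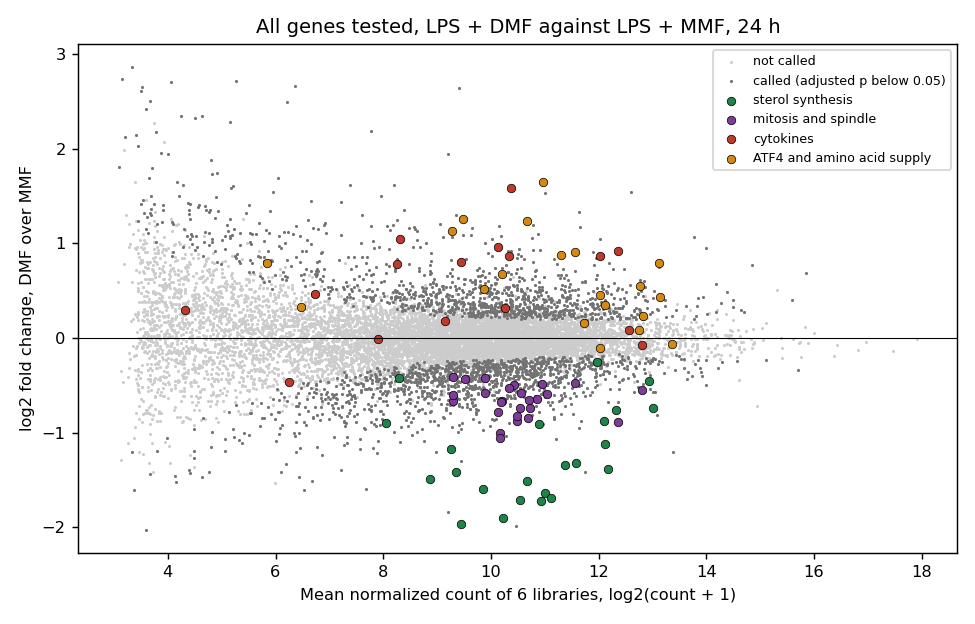
Each point is 1 of the 11665 genes tested, with the mean normalized count of the 6 libraries on the x axis (log2 of the count plus 1) and the log2 fold change of DMF over MMF on the y axis. Called genes are dark grey, and the coloured members of 4 lists lie below 0 for sterol synthesis and for mitosis and mostly above 0 for cytokines and for ATF4 targets.

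The largest rises and falls named here were taken among called genes with a mean of at least 100 normalized counts in the higher group. Their groups did not overlap, and predicted symbols were left out. The 12 largest such rises under DMF included secreted proteases and chemokines. Gbp8, a guanylate-binding protein outside these limits, rose by 2.71 (limma adjusted p 0.00483). Mmp3, stromelysin 1, stood at 91.8, 184 and 146 normalized counts under DMF and at 26.2, 25.8 and 12.5 under MMF in replicates 1 to 3, a log2 fold change of 2.67 ± 0.33 (SE) at an adjusted p of 0.000986. S100a8, a calcium-binding alarmin of myeloid cells, stood at 709, 1636 and 1182 against 135, 274 and 151, a log2 fold change of 2.64 ± 0.31 (SE) at an adjusted p of 0.000832. In both genes the lowest DMF library lay more than 2-fold above the highest MMF library. Ccl7, a chemokine for monocytes, stood at 842, 872 and 1073 against 318, 148 and 291 (1.94, adjusted p 0.00112). Mmp12, macrophage elastase, was abundant, at 7599, 9046 and 11132 against 3632, 3103 and 2762 (1.54, adjusted p 0.000219). Cxcl3, a chemokine for neutrophils, and Csf3, granulocyte colony-stimulating factor, had log2 fold changes of 1.53 (adjusted p 0.0019) and 1.58 (adjusted p 0.00492), and an antisense lncRNA covers 44.2% of the exon bases of Csf3, so the reads of that pair cannot be told apart if counting ignored strand. The other large rises were Avil (2.49), which encodes the actin-binding protein advillin, Hid1 (2.19), Trib3 (1.65), a pseudokinase induced by ATF4, Cox6a2 (1.62), a subunit of cytochrome c oxidase, Lipn (1.61), a lipase, and Pla1a (1.69), a phospholipase. Of these 12 genes, Pla1a had an adjusted p of 0.0524 without DMF replicate 3, and the other 11 were called without any 1 library.

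Of the 12 largest falls under DMF, 8 were genes of sterol synthesis or sterol transport. Among the other 4, Acat2, a cytosolic thiolase that makes acetoacetyl-CoA at the entry of that pathway, stood at 672, 499 and 551 normalized counts under DMF and at 2053, 2473 and 2273 under MMF, a log2 fold change of -1.99 ± 0.11 (SE) at an adjusted p of 1.39e-05. Every DMF library lay more than 3-fold below every MMF library. Mouse Acat3 is a near-identical copy, so the share of reads assigned to Acat2 is uncertain. Papln, a matrix glycoprotein, stood at 299.8, 220.02 and 252 against 934, 987 and 831 (-1.84, adjusted p 3.71e-05). Prtn3, the serine protease proteinase 3, stood at 49.8, 53.8 and 32.4 against 139.99, 146 and 127 (-1.61, adjusted p 0.00103). Hdac9, a class IIa histone deacetylase, stood at 134, 95.7 and 72.8 against 405, 255 and 256 (-1.60, adjusted p 0.00218). All 4 were called in each fit that left out 1 library.

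**Figure D2:**
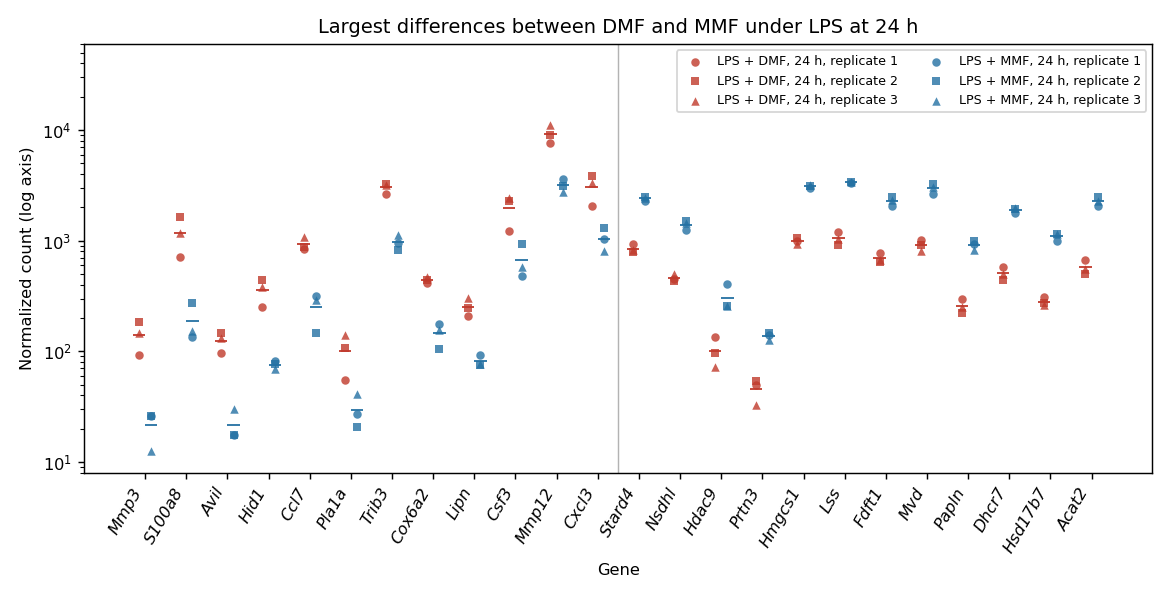
Normalized counts on a log axis for the 12 genes named for the largest rises (left of the grey line) and the 12 named for the largest falls under DMF. Each marker is 1 library, red for LPS with DMF and blue for LPS with MMF, and short lines are group means. In each of the 24 genes the libraries of the groups do not overlap.

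Sterol synthesis was lower under DMF throughout the pathway. Of 24 listed genes of sterol synthesis and SREBP2 control, 23 were tested, and 23 were lower and 0 higher, with a median log2 fold change of -1.34 against -0.0063 over all genes tested. Hmgcs1, the synthase that makes HMG-CoA, had the smallest adjusted p of the whole table. It stood at 995, 1063 and 928 normalized counts under DMF and at 2973, 3133 and 3198 under MMF, a log2 fold change of -1.64 ± 0.071 (SE) at an adjusted p of 9.26e-06, with the groups far apart.

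The fall extended along the mevalonate steps and the later sterol steps. Mvd, which makes isopentenyl diphosphate, stood at 1005, 909.97 and 813 under DMF and 2659.9, 3277 and 3057 under MMF (-1.72), with an antisense lncRNA over 20.48% of its exon bases. Fdft1, squalene synthase, stood at 771, 639 and 672 against 2049.6, 2459 and 2336 (-1.72), and 24.8% of its exon bases lie on exons of Ctsb on the other strand. Lss, lanosterol synthase, stood at 1203, 914 and 1037 against 3328, 3366 and 3417 (-1.69). The late enzymes Hsd17b7 (-1.97), Dhcr7 (-1.90), Nsdhl (-1.60) and Cyp51 (-1.34) also fell, as did Stard4 (-1.51), which carries sterols between membranes. Srebf2, the gene of SREBP2 itself, stood at 6475, 6031 and 5896 against 9966, 10417 and 10462 (-0.75, adjusted p 0.000134). Insig1, which retains SREBP2 in the endoplasmic reticulum and is also its target, had a log2 fold change of -1.32. The count of 23 was 22 when DMF replicate 2 or 3 or MMF replicate 1 or 3 was left out, and the median ran from -1.40 to -1.28 over the fits that left out 1 library.

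The promoters of the sterol genes were read from GRCm39 over the 250 bases before the start of the Ensembl canonical transcript (GENCODE vM39). The sterol response element was searched as TCACNCCAC on both strands, and 1 of the 23 promoters held it, against 1.12% of 21770 protein-coding promoters. The stretch around the match in the gene with the smallest adjusted p is shown, on the plus strand at chr13:120151732-120151788, with the match in capitals.
Hmgcs1: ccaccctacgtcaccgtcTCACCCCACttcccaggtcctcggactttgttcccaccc
A match of these letters is a description of the sequence and not a measured binding site.

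Other lipid genes moved in several directions. Of 12 tested genes of fatty acid synthesis and desaturation, 7 were lower and 1 higher under DMF, with a median of -0.38. Acss2, which makes cytosolic acetyl-CoA from acetate, stood at 412, 422 and 354 against 816, 1269 and 886 (-1.30, adjusted p 0.000803), and Acly, ATP-citrate lyase, at 6872, 5720.5 and 6309 against 10877, 10879 and 11453 (-0.82, adjusted p 0.000229). Scd1 (-0.58), Fads2 (-0.52) and Elovl6 (-0.52), which desaturate or lengthen fatty acids, fell as well, and Fasn, fatty acid synthase, was higher by 0.25 (adjusted p 0.0409), a call that did not stand in any fit without 1 library. Of 15 genes of lipid efflux, LXR control and lipid droplets, 6 were higher and 1 lower, with a median of 0.27. Abca1, the exporter that loads sterol onto apolipoproteins, stood at 4224, 4788 and 4575 under DMF and 1679.9, 2182 and 1600.0 under MMF, a log2 fold change of 1.33 ± 0.11 (SE) at an adjusted p of 0.000141. Abcg1, its partner for high-density lipoprotein, stood at 2401, 2652 and 2573 against 1163, 1347 and 1065 (1.10, adjusted p 0.000133). Lpl, lipoprotein lipase, went the other way, with 7318, 6031 and 5831 against 13061, 16989.7 and 14376 (-1.21, adjusted p 0.000229), so in all 3 genes the libraries of the groups were apart. The 6 higher calls were 2 without DMF replicate 2, DMF replicate 3 or MMF replicate 3 and 3 without MMF replicate 1, with Abca1 and Abcg1 among the calls in each of these fits.

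Cell division genes were lower under DMF, with smaller differences and more dependence on single libraries. Of 26 genes of mitosis and the spindle, 23 were lower and 0 higher, with a median of -0.65, and of 26 genes of DNA replication and nucleotide synthesis 19 were lower and 0 higher, with a median of -0.50. Aurkb, a kinase of the chromosomal passenger complex, stood at 959, 652 and 687 normalized counts under DMF and 1647, 1316 and 1598 under MMF, a log2 fold change of -1.0 ± 0.14 (SE) at an adjusted p of 0.0019. Top2a, topoisomerase II alpha, stood at 4858, 2951 and 3319 against 7382, 5552 and 7332 (-0.89, adjusted p 0.00749). In these genes DMF replicate 1 was the highest of its group, and the groups were still apart. Ccna2 (-0.87), Ccnb1 (-0.85) and Plk1 (-0.79), cyclins and a kinase of mitotic entry, and Mki67 (-0.55), the proliferation antigen, fell too, but Plk1 was not called when DMF replicate 3 was left out, nor Mki67 when DMF replicate 3 or MMF replicate 1 or 3 was. Of the replication genes, Rrm2, a subunit of ribonucleotide reductase, stood at 2628, 1771 and 2089.96 against 3924, 3108 and 4247 (-0.80, adjusted p 0.00574), with an antisense lncRNA over 43.3% of its exon bases, and Mcm7, of the replicative helicase, had a log2 fold change of -0.65. The 23 mitosis calls were 14 and 7 when DMF replicate 2 or 3 was left out and 10 and 8 when MMF replicate 1 or 3 was, and the 19 replication calls were 10, 6, 10 and 7 in the same order. With the replicate block the calls were 26 and 24.

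The called genes of amino acid shortage and of endoplasmic reticulum (ER) stress were all higher under DMF. Of 20 tested genes of the ATF4 response and amino acid supply, 13 were higher and 0 lower, with a median of 0.53. Trib3 stood at 2659.9, 3240.5 and 3198 normalized counts under DMF and 961, 819.5 and 1123 under MMF, a log2 fold change of 1.65 ± 0.12 (SE) at an adjusted p of 5.84e-05. Atf5, a transcription factor downstream of ATF4, stood at 1990.5, 2535 and 2377 against 925, 972 and 1020.1 (1.24, adjusted p 8.11e-05), and Chac1, which breaks down glutathione, at 780.05, 833 and 951 against 396, 337 and 437 (1.13, adjusted p 0.000382). Ddit3, which encodes CHOP, had a log2 fold change of 1.26, and 64.1% of its exon bases lie on exons of Mars1 on the other strand. Atf4 itself rose by 0.43 (adjusted p 0.00399), and the amino acid carriers Slc3a2 (0.79) and Slc7a5 (0.55) rose as well. The count of 13 stayed between 12 and 14 over the fits that left out 1 library.

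Of 18 ER chaperones and genes of the unfolded protein response, 7 were higher and 0 lower, with a median of 0.11. Dnajb9, a co-chaperone of BiP, stood at 597, 802 and 842 against 305, 303 and 352 (1.21, adjusted p 0.000574), and Herpud1, a component of ER-associated degradation, at 3738, 4575 and 5094 against 1879, 1849 and 2167 (1.18, adjusted p 0.000257). Sel1l, of the same degradation complex, had a log2 fold change of 0.61. Hspa5, which encodes BiP, rose by 0.77, and Rabepk lies on the other strand over 44.2% of its exon bases.

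The called cytokines and chemokines were higher under DMF than under MMF, with 1 exception that lay near the filter. Of 16 tested cytokines and growth factors, 10 were higher and 0 lower, with a median of 0.62, and of 15 chemokines 7 were higher and 1 lower, with a median of 0.44. Lif, leukaemia inhibitory factor, stood at 306, 515 and 469.9 normalized counts under DMF and 208, 246 and 165 under MMF, a log2 fold change of 1.04 ± 0.20 (SE) at an adjusted p of 0.00723. Csf1, the growth factor of macrophages and microglia, stood at 1468, 1753 and 1777 against 971, 874 and 879.8 (0.87, adjusted p 0.000419). Il1a, interleukin 1 alpha, stood at 1092, 1529 and 1868 against 682, 883 and 704 (0.96, adjusted p 0.00554), and Il1rn, the antagonist of the same receptor, at 5520.1, 7499 and 7480.2 against 3369, 4213 and 3256 (0.91, adjusted p 0.0019). Agonist and antagonist were thus both higher, with the groups apart in each. Osm, oncostatin M, had a log2 fold change of 0.80 (adjusted p 0.000911). Ccl4, a chemokine for monocytes and T cells, stood at 2464, 2861 and 3769 against 1496, 1897 and 1838 (0.78, adjusted p 0.0061). The lower chemokine was Cxcl11, an interferon-induced ligand of Cxcr3, with 4.43, 4.78 and 3.16 against 12.03, 17.6 and 14.1 (-1.60, adjusted p 0.0156), which was not called without DMF replicate 3 (adjusted p 0.0633) or MMF replicate 3 (0.0556). Its counts were near the filter, which it passed only through the MMF libraries, so nothing is read from its fall. A filter of 50 in 3 libraries left Cxcl11 untested, and DESeq2 gave it no adjusted p. The 0 chemokines called lower in these 2 settings thus do not bear on its fall. A pseudogene lies on the other strand over 41.7% of the exon bases of Cxcl11.

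Il1b, interleukin 1 beta, overlapped between the groups, with 3704, 6062 and 6238 under DMF and 2036, 3899 and 2911 under MMF (0.87, adjusted p 0.0307). Its call was lost without DMF replicate 2 (0.0831) or 3 (0.13), without MMF replicate 1 (0.0894) or 3 (0.0886), with DESeq2 (0.0557) and with all 6 groups at 24 h in 1 fit (0.142). Tnf, tumour necrosis factor, was not called, with 6493, 5648 and 6578 against 5828, 5940.2 and 5858 and a 95% interval of the log2 fold change of -0.07 to 0.24. The 10 cytokine calls were 7 when DMF replicate 2 or 3 or MMF replicate 1 or 3 was left out. The 7 higher chemokine calls were 4 without DMF replicate 3.

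Interferon-stimulated genes and surface receptors of activation held fewer calls. Of 23 tested interferon-stimulated genes, 6 were higher and 0 lower, with a median of 0.27. Rsad2, the antiviral enzyme viperin, stood at 1779, 3187 and 2412 under DMF and 1036, 1342 and 823 under MMF (1.19, adjusted p 0.00492), and Ifit1, which binds viral RNA, at 1016, 1813 and 1368 against 633, 792 and 574 (1.04, adjusted p 0.00543). In both genes DMF replicate 2 was the highest library. The 6 calls were 3 when DMF replicate 3 or MMF replicate 3 was left out, 12 when DMF replicate 1 was, 9 when MMF replicate 2 was, and 16 under the replicate block. Of 11 guanylate-binding proteins and immunity-related GTPases, 4 were higher and 0 lower, with a median of 0.37, and their sequences are alike enough that reads may be split between members. The 4 calls were 2 without MMF replicate 3 and 7 under the replicate block. Of 17 surface markers, 5 were higher and 1 lower, with a median of 0.22, and 8 were higher under the block. Cd83 had the largest called rise (adjusted p 0.00863), from 1.16 to 1.55 over the other settings that tested it. The lower one was Cd274, the ligand PD-L1 (adjusted p 0.0451). Its call was lost in 5 of the 6 fits without 1 library and with all 6 groups at 24 h in 1 fit. Cd86 and Cd80, the costimulatory ligands of T cells, had log2 fold changes of 0.92 (adjusted p 0.00205) and 0.83 (adjusted p 0.00169). Tlr4, the LPS receptor, stood at 1224, 1297 and 1384 against 895, 836 and 876 (0.58, adjusted p 0.00106). Of the 10 genes of inflammasome and pyroptosis, 4 were higher and 1 lower, with a median of 0.36, and 7 were higher under the block. Casp1, the protease that matures interleukin 1 beta, stood at 1993, 2415 and 2429 against 1507, 1519 and 1479 (0.60, adjusted p 0.00168), and Nlrp3, the sensor, was not called (4789, 5561 and 5503 against 4145, 5335 and 4439, interval -0.03 to 0.41).

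Among the microglial genes, P2ry12 and P2ry13, purine receptors of resting microglia, were higher under DMF. P2ry12 stood at 108, 78.9 and 98.9 against 45.9, 47.5 and 46.5 (1.0, adjusted p 0.00394) and P2ry13 at 80.8, 103 and 84.6 against 34.998, 49.6 and 41.5 (1.08, adjusted p 0.00467). Of the 14 genes tested, 2 were higher and 2 lower, among the latter Cd68 (-0.30), a glycoprotein of lysosomes. The median of the list was 0.09, and its 2 higher calls were 4 without DMF replicate 1, 5 without MMF replicate 2 and 6 under the block. Cd68 was not called with all 6 groups at 24 h in 1 fit, where its adjusted p was 0.064. Of 7 tested acute-phase and granule genes, S100a8 was higher, and Hp, which encodes haptoglobin, and Cp, ceruloplasmin, were lower. Hp stood at 1863, 2024 and 1556 against 3372, 6649 and 5048 (-1.42, adjusted p 0.0019).

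**Figure D3:**
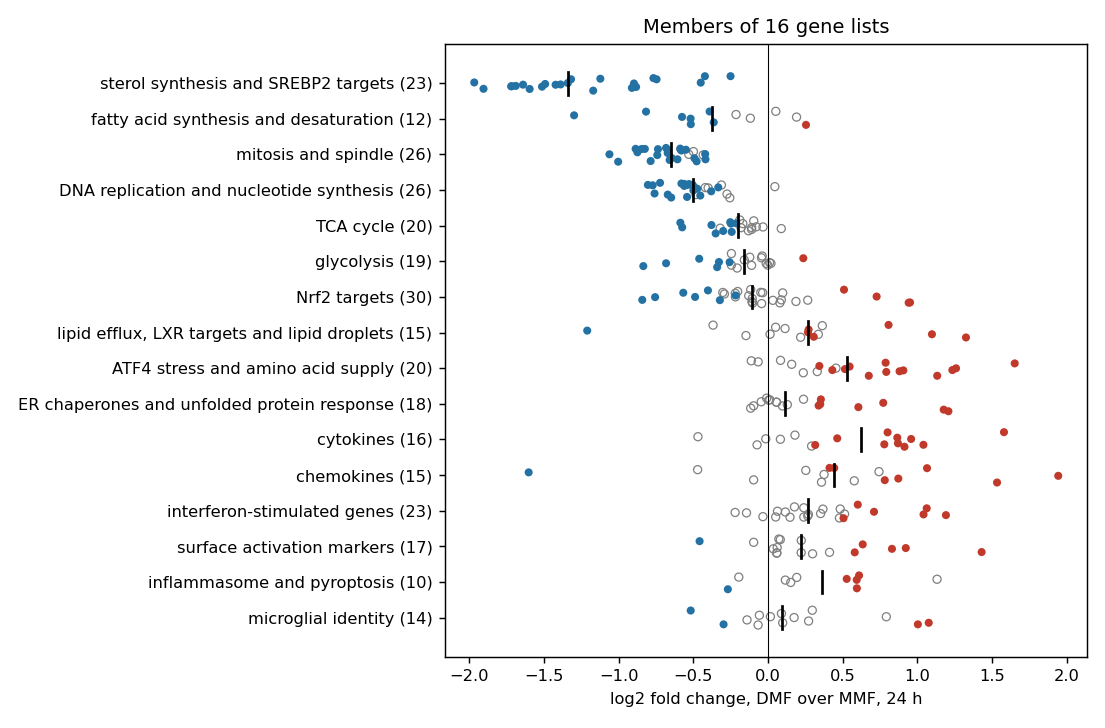
Each circle is 1 tested gene of a list, with the log2 fold change of DMF over MMF at 24 h on the x axis. Filled circles are called genes (red higher, blue lower under DMF), open circles are genes not called, black bars are list medians and the numbers in parentheses are genes tested. Sterol synthesis has the lowest median, at -1.34, and cytokines the highest, at 0.62.

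Nrf2 targets did not share a direction between the esters at 24 h. Of 30 tested targets, 4 were higher and 7 lower under DMF, with a median of -0.11. The higher ones included Sqstm1, the autophagy receptor p62, at 17397, 22656 and 24899.9 normalized counts under DMF and 11368, 10586 and 11269.8 under MMF, a log2 fold change of 0.95 ± 0.12 (SE) at an adjusted p of 0.000942. Osgin1, an oxidative stress-induced growth inhibitor, stood at 297, 353 and 439 against 187, 174 and 198 (0.94, adjusted p 0.00233). Slc7a11, the cystine importer, stood at 5468, 7808 and 8005 against 3655, 5292 and 3888, with DMF replicate 1 only just above the highest MMF library (0.73, adjusted p 0.0141). Its call was lost when DMF replicate 3 was left out (adjusted p 0.0759) and when MMF replicate 1 (0.051) or 3 (0.0626) was. Srxn1, sulfiredoxin, was the fourth (0.51, adjusted p 0.0319), a call lost when DMF replicate 2 or 3 or MMF replicate 1 or 3 was left out. Among the lower ones, Ephx1, epoxide hydrolase 1, stood at 252, 267 and 279 against 465, 524 and 446 (-0.84, adjusted p 0.000684), and Me1, malic enzyme 1, which makes NADPH, at 541, 673 and 672 against 994, 1203 and 988 (-0.76, adjusted p 0.00208), with exons of Rwdd2a on the other strand over 35.0% of its exon bases. Gstp1, a glutathione transferase, Gsr, glutathione reductase, and Gss, glutathione synthetase, were lower, with log2 fold changes of -0.49, -0.22 and -0.40. The call of Gstp1 was lost when DMF replicate 3 was left out, that of Gss when MMF replicate 3 was, and that of Gsr when any 1 library was. The calls of 4 and 7 were 3 and 6 or 2 and 4 when DMF replicate 2 or 3 was left out, 2 and 6 or 2 and 5 when MMF replicate 1 or 3 was, and 5 and 12 with the replicate block.

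Several defining targets were not called. Hmox1, haem oxygenase 1, stood at 5726, 8949 and 7847 under DMF and 7174, 8661 and 7066 under MMF, with a 95% interval of the log2 fold change of -0.37 to 0.29. For Gclc, the catalytic subunit of glutathione synthesis, the interval was -0.19 to 0.10, for its modifier Gclm -0.13 to 0.33, and for Txnrd1, thioredoxin reductase 1, -0.07 to 0.23. Differences of more than 1.5-fold lay outside these 4 intervals. Nqo1, a quinone reductase, was low, with 17.7, 49.03 and 26.9 against 16.4, 51.7 and 18.3, and its interval of -0.86 to 1.24 was wide. Of the regulators, Nfe2l2, the gene of Nrf2, rose by 0.34 (adjusted p 0.00623), and Keap1 had an interval of -0.22 to 0.19.

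The antioxidant response element, the site bound by Nrf2 with a small Maf protein, was searched as TGACNNNGC on both strands in the same 250 bases. It was found in 5 of the 30 promoters (16.7%), against 9.69% of all 21770. The 5 stretches are shown because the gene called higher and 4 targets that were not called hold the same core. Each runs 5′ to 3′ on the strand of its gene, with the match in capitals.
Sqstm1, minus strand, chr11:50102972-50103040: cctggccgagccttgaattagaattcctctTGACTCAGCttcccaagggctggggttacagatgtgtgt
Prdx1, plus strand, chr4:116542633-116542701: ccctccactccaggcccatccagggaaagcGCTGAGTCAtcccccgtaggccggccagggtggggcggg
Pir, plus strand, chrX:163052183-163052251: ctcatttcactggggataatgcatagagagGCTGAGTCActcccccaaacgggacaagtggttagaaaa
Txnrd1, plus strand, chr10:82694918-82694986: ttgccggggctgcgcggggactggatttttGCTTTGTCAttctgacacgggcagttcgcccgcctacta
Gclm, plus strand, chr3:122039042-122039110: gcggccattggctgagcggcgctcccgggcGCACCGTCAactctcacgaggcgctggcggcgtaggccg
In Sqstm1 the match began 125 bases before the start and read on the strand of the gene, and in the other 4 it read on the opposite strand. Sqstm1 was the only one of the 5 to be called (0.95). The log2 fold changes of Prdx1, peroxiredoxin 1, Pir, pirin, Txnrd1 and Gclm were 0.27, -0.30, 0.08 and 0.10, on both sides of 0.

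Called genes of energy metabolism were mostly lower under DMF, by small amounts. Of 20 tricarboxylic acid (TCA) cycle genes, 9 were lower and 0 higher, with a median of -0.20, and of 19 genes of glycolysis 6 were lower and 1 higher, with a median of -0.16. Fh1, fumarate hydratase, which converts fumarate to malate, stood at 2181, 2016 and 2099 normalized counts under DMF and 3074, 2878 and 3533 under MMF (-0.59, adjusted p 0.00164), with the groups apart. Pdk1, which restrains pyruvate entry into the cycle, stood at 3804, 3586 and 3305 against 5630.4, 5993 and 5522 (-0.68, adjusted p 0.000419), and Bnip3, a mitophagy receptor, had a log2 fold change of -0.83. Ldha, lactate dehydrogenase A, fell by 0.34 on the log2 scale. Hcar2, a receptor for which MMF is a ligand, was not called and varied within the groups, with 704, 1217 and 1067 against 685, 1560.5 and 929.6. The 9 TCA cycle calls were 4 when DMF replicate 2 or MMF replicate 1 or 3 was left out and 2 when DMF replicate 3 was, and they were 14 under the block.

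Each ester was also set against LPS alone, with the reminder that these comparisons share the 3 LPS libraries with each other and their ester libraries with the comparison above. DMF differed from LPS alone in 2926 of 11670 genes (25.1%), and 4566 with the replicate block, for which same-numbered libraries also deviated together. That count was 1766 or 1352 when DMF replicate 2 or 3 was left out and 1618 when LPS replicate 3 was. MMF differed from LPS alone in 0 of 11584 genes (0%) with limma and in 0 with edgeR, while 440 genes passed an unadjusted p of 0.05 and no adjusted p was smaller than 0.0777. DESeq2, tried after this count was seen, called 18 genes, the replicate block 206, and the fit without LPS replicate 2 called 2. Same-numbered MMF and LPS libraries also deviated together (correlations of 0.43, 0.68 and 0.33), which the fits with 0 calls left out. The 24 genes named for the largest rises and falls were chosen on the DMF and MMF libraries that enter here again. Their values against LPS are thus a description. In the limma fits without the block, all 24 were called for DMF and 0 for MMF. For Hmgcs1 the log2 fold change against LPS was -1.78 (SE 0.072) under DMF and -0.14 (SE 0.063) under MMF. For Mmp3 it was 2.55 (SE 0.33) and -0.12 (SE 0.40), and for Trib3 1.84 (SE 0.09) and 0.18 (SE 0.11). Ccl7 had 1.15 (SE 0.26) under DMF and -0.79 (SE 0.34) under MMF, the second of which was not called. Among the 30 Nrf2 targets the median against LPS was 0.21 under DMF, where 12 were called higher and 2 lower. Under MMF the median was 0.37, and 0 were called in the limma fit without the block. Over the sterol genes the median was -1.44 under DMF and -0.05 under MMF. LPS alone against DMSO gave a median of 0.37 for the sterol genes and 1.25 for the cytokines, on the same scale.

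**Figure D4:**
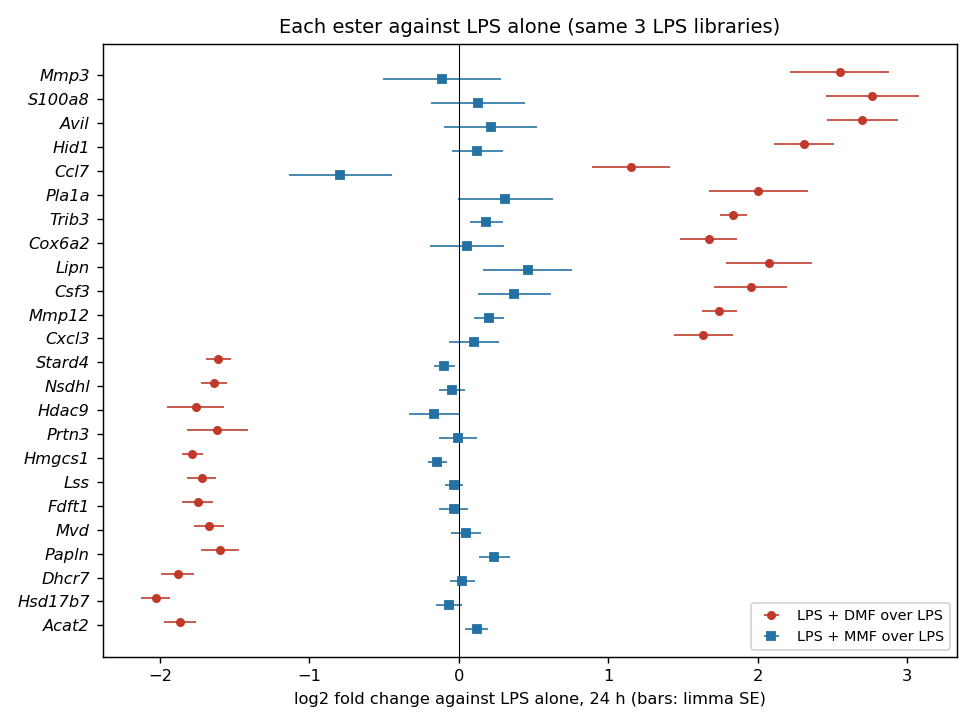
The x axis holds the log2 fold change against LPS alone at 24 h, for the 24 genes named for the largest rises and falls. Red circles are LPS with DMF and blue squares LPS with MMF, with bars for the limma SE. The DMF values lie far from 0 in either direction, and the MMF values near 0, at most 0.79 from it. The same 3 LPS libraries enter both sets of points.

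The difference between the esters was only partly the same at 4 h. At that time 949 of 11377 genes were called (8.34%), 383 higher and 566 lower under DMF. Leaving out DMF replicate 3 gave 310 calls, and leaving out MMF replicates 1, 2 and 3 in turn gave 539, 452 and 390. Of the 24 h calls, 301 were also called at 4 h, 196 in the same and 105 in the opposite direction, which is 12% of the 24 h calls and 32.1% of the 4 h calls among the genes tested at 24 h. No library is shared between the times. The difference between the times was tested as an interaction on 12 libraries, from recovered reads under joint size factors, and 1614 of 11935 genes were called (13.5%), 789 more positive and 825 more negative at 24 h. Of the 24 h libraries, leaving out MMF replicate 3 gave 934, DMF replicate 3 943, DMF replicate 2 957 and MMF replicate 1 990.

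For most sterol genes the difference at 24 h was not that at 4 h. At 4 h 0 of 23 were called by limma or edgeR, with 3 and 2 at an unadjusted p below 0.05, and 1 was called under the replicate block. The median was 0.08, and the interaction was called in 21 of 23. Hmgcs1 had a log2 fold change of 0.04 at 4 h and -1.64 at 24 h (interaction -1.69, adjusted p 0.000338). In the mitosis list the median was 0.17 at 4 h, with 1 gene higher, and 23 of 26 had a called interaction. In the Nrf2 list the larger differences were at 4 h. At that time 24 of 30 were higher under DMF and 0 lower, with a median of 0.88, and at 24 h the median was -0.11, with 24 called interactions that were all negative. Hmox1 had 2.37 at 4 h and -0.04 at 24 h (interaction -2.42, adjusted p 2.92e-05), and Gclm 2.11 and 0.10 (-2.01, 2.92e-05). Sqstm1 had 0.86 and 0.95 (0.09, 0.755).

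Of the cytokines, 5 were called lower under DMF at 4 h and higher at 24 h. At 4 h, of 15 tested, 7 were lower and 1 higher under DMF, with a median of -0.92, and 9 of 16 had a called interaction, all positive. Lif had -1.18 at 4 h and 1.04 at 24 h (interaction 2.21, adjusted p 0.000533), and Ccl7 -1.85 and 1.94 (3.79, 5.88e-05). Of the interferon-stimulated genes 15 were lower and 0 higher at 4 h, and 16 of 23 interactions were called. Of 20 ATF4 targets, 8 were higher at 4 h, with a median of 0.43, 7 were called higher at both times, and 1 interaction was called, for Ddit3.

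**Figure D5:**
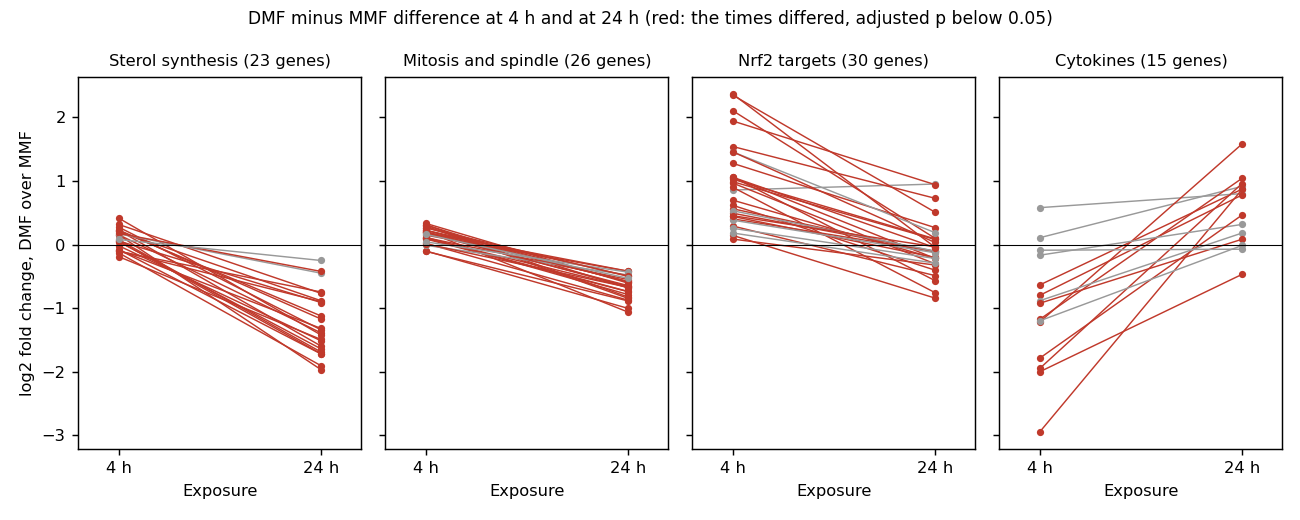
Log2 fold change of DMF over MMF at 4 h and at 24 h, with a line for each gene tested at both times, in 4 lists. Red lines are genes whose difference changed between the times (interaction, adjusted p below 0.05). Sterol and mitosis genes go from near 0 to below it, Nrf2 targets from above 0 to around it, and cytokines mostly from below 0 to above it.

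Most genes were not called, and the width of their intervals bounds what may have been missed. Of 9157 genes not called at 24 h, 6355 (69.4%) had a 95% interval of the log2 fold change within 0.50 of 0 and 8342 (91.1%) within 1, with a median half-width of 0.22. Nos2, inducible nitric oxide synthase, stood at 3854, 7967 and 4986 normalized counts under DMF and 5076, 9946 and 5117 under MMF, where replicate 2 was the highest in each group, and its interval of -0.90 to 0.40 left room for a difference. Ptgs2, cyclooxygenase 2, stood at 34578, 52614 and 53935 against 25132, 51178 and 26712, with an interval of -0.07 to 1.08. Lcn2, lipocalin 2, which LPS raised by 7.22 against DMSO, had an interval of -0.35 to 0.55. The interval for Acod1, which makes itaconate, was -0.13 to 0.84.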

How the data were processed

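RNA of BV-2 cells was sequenced as poly(A)+ paired-end libraries. Per the labels and the study's methods, the authors checked reads with FastQC 0.12.1, trimmed them with Cutadapt 4.4 and Trimmomatic 0.39, mapped them to GRCm39 with HISAT2 2.2.1 and counted them per gene with HTSeq 2.0.3, with no strand setting given in the sources used here. The deposited signal is the read count divided by a DESeq2 1.40.2 size factor, in a separate table for each pair of groups, and 6 of the 30 tables were used. Columns of the authors' own comparisons (fold changes and p-values) were not used. Whole reads were recovered from the size factor steps, with 100% of 628836 values within 0.01 read of a whole number, and reads from different tables did not differ in 203373 values.

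Genes with a normalized count of at least 10 in at least 3 of 6 libraries were tested in limma 3.58.1 (R 4.3.3, lmFit, and eBayes with trend) on log2 of the normalized count plus 1, which understates the change of low genes. Fold changes are DMF over MMF, SE is the limma standard error, and intervals are 95% limma intervals. Only the 6 libraries of a comparison entered its fit. The count tests edgeR 4.0.16 and DESeq2 1.42.0 on recovered reads were alternatives and called 2528 and 2550 genes. Scripts were tested on simulated data.

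Same-numbered libraries at 24 h deviated together from their group means (correlations of 0.42, 0.58 and 0.20 over 10154 genes). Of the other pairs, DMF replicate 1 with MMF replicate 3 correlated by 0.25 and the rest were negative. The correlations thus did not single out a partner for MMF replicate 3. The labels describe 3 repeats of the experiment, so the block is given beside the main counts and the list counts it moved most. No libraries were copies, with a chi-square per degree of freedom of 4.85 to 17.8 within groups. The p-values measure the spread between repeats of 1 cell line.

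Named genes were the 12 largest rises and 12 largest falls among called genes with a mean of at least 100 in the higher group, no overlap of the groups and a symbol that is not a predicted name, and up to 6 called members of each list, with defining genes that were not called. Atf4, Cyp51, Fasn, Gsr, Gss, Gstp1, Insig1, Mki67, Osm, Plk1, Slc3a2, Slc7a5, Srebf2 and Srxn1 were called outside this rule and chosen after their values were seen. The comparison, lists and rule were chosen with earlier results of these data known. Of the 11665 genes tested, 11655 were found in GENCODE vM39, 11643 at an overlapping position. Some genes are not reported here.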

Additional observations from a re-analysis of the deposited data

Results flagged for a closer look

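The test of the difference between exposure times set apart all of the results given here. In 1614 genes the DMF minus MMF difference at 24 h differed from that at 4 h (limma interaction, Benjamini-Hochberg adjusted p below 0.05, 12 libraries). They were 13.5% of the 11935 genes tested. Lists with at least 10 such genes are given beside their tested members. These were 24 of 30 Nrf2 targets, 16 of 23 interferon-stimulated genes and 10 of 11 guanylate-binding proteins and related GTPases. There were also 11 of 17 surface activation markers, 21 of 23 sterol genes, 10 of 26 replication genes and 23 of 26 mitosis genes. Some shorter lists held fewer such genes but large shares, as cytokines (9 of 16), chemokines (8 of 15) and fatty acid synthesis (8 of 12).

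Of the 24 genes named for the largest rises and falls at 24 h, 22 had a called interaction. They were chosen on the same 24 h libraries that enter the interaction, so this number is a description and not independent of the choice. The interaction, in log2 units and positive where DMF moved further above MMF by 24 h, was 3.79 for Ccl7, 3.69 for Mmp3, 2.79 for Csf3, 2.63 for Avil, 2.61 for Hid1 and 2.44 for S100a8. It was smaller for Cxcl3 (1.60), Mmp12 (1.48), Lipn (1.39) and Cox6a2 (1.38). For the sterol genes it was -2.13 in Hsd17b7, -1.83 in Nsdhl, -1.78 in Dhcr7, -1.78 in Fdft1, -1.77 in Lss, -1.69 in Hmgcs1, -1.65 in Mvd and -1.50 in Stard4. It was -2.14 for Acat2, -1.65 for Papln, -1.32 for Prtn3 and -1.22 for Hdac9. The other 2 were Trib3, with 0.32 (adjusted p 0.481), and Pla1a, with 1.71 (adjusted p 0.0537). Groups of 3 libraries were not examined for a library far from the others.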

How the results depend on the processing

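The count of 2508 genes that differed between DMF and MMF at 24 h (1173 higher, 1335 lower) stayed between 2341 and 2708 under both other pseudocounts, both other filters, TMM normalization, edgeR, DESeq2 and 1 fit of all 6 groups at 24 h. Blocking on the replicate number gave 4639 (2157 higher, 2482 lower), and asking for an absolute log2 fold change above 1 gave 237 (162 higher, 75 lower). Leaving out 1 library gave 962 to 2957 calls, 471 to 1392 of them higher and 491 to 1565 lower. None of the 161 named genes reversed under any of these settings. Of their calls, 28 and 51 were lost when DMF replicates 2 and 3 were left out, 29 and 42 when MMF replicates 1 and 3 were, and 0 under the block. The cause was not tested.

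The 1614 interaction calls were 2911 with the block, which pairs replicate numbers within a time, 416 above an absolute log2 fold change of 1 and 934 to 2004 with 1 library left out. The 949 calls at 4 h were 1740 with the block and 310 to 1234 with 1 library left out. At 4 h the deviations of same-numbered libraries correlated by 0.28, 0.62 and 0.04, so the number was not taken to pair them there. For DMF against LPS the block gave 4566 calls and leaving out 1 library 1352 to 3357. For MMF against LPS the 0 calls were 206 with the block, 18 with DESeq2, which was added after the data were seen, and 0 to 2 with 1 library left out. With 3 libraries a group, differences near or under the median SE of 0.098 log2 units could not be resolved.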

Other observations

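Other lists are given beside the 21.5% of all genes that were called (10.1% higher, 11.4% lower), and nothing is read from a share near it. Of 20 tested p53 targets and apoptosis genes, 8 were higher and 2 lower under DMF, with a median of 0.18. Bcl2l11, the pro-apoptotic protein Bim, stood at 1438, 1613 and 1667 normalized counts under DMF and 898, 953 and 918 under MMF (0.77, limma adjusted p 0.000343), and Bcl2, which Bim binds, was higher by 0.48. Cdkn1a, the cell cycle inhibitor p21, was not called, with an interval of -0.07 to 0.32. Of 23 AP-1 and immediate early genes, 5 were higher and 1 lower, with a median of 0.22. Dusp5, a phosphatase of ERK, stood at 1278, 1501 and 1645 against 847, 1004 and 792 (0.74, adjusted p 0.00243), with an antisense lncRNA over 22.4% of its exon bases. Klf4, a transcription factor of monocytes, had 253, 343 and 305 against 141, 178 and 145 (0.95, adjusted p 0.0022). Leaving out DMF replicate 1 gave 10 higher AP-1 calls, leaving out MMF replicate 2 gave 9, and the block gave 12, beside 13 of the p53 and apoptosis list, whose higher calls were 5 without DMF replicate 3.

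Of 19 genes of adhesion, matrix and proteases, 6 were higher and 2 lower, with a median of 0.20. Mmp8, neutrophil collagenase, and Mmp13, collagenase 3, were higher by 1.34 and 0.93, beside Mmp3 and Mmp12. Leaving out MMF replicate 2 gave 10 higher calls. Alox5, which starts leukotriene synthesis, stood at 326, 383 and 336 against 191, 209 and 214 (0.76, adjusted p 0.00149), among 2 higher and 1 lower of 11 genes of that list (4 and 1 under the block). Of 12 genes of complement and Fc receptors, 4 were higher and 1 lower (7 and 2 under the block), and the higher calls were 2 and 0 when DMF replicates 2 and 3 were left out and 1 and 0 when MMF replicates 1 and 3 were. Ctsk, the protease cathepsin K, was higher (0.81) and Ctss, cathepsin S, lower (-0.39), among 2 higher and 4 lower of 21 lysosomal genes (5 and 4 under the block). The higher lysosomal calls were 4 without DMF replicate 1 or MMF replicate 2 and 1 when DMF replicate 2 or 3 or MMF replicate 1 or 3 was left out.

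The remaining lists are given as the genes called higher and lower, with the same under the replicate block. NF-kB and its feedback genes had 1 and 3 of 20 (5 and 5 under the block), class I antigen presentation 0 and 1 of 14 (0 and 4) and the constitutive proteasome 0 and 1 of 25 (1 and 7). Zinc genes had 3 and 0 of 11 (4 and 2), cytosolic heat shock genes 2 and 0 of 12 (3 and 2), nitric oxide and arginine genes 2 and 0 of 7 (3 and 2) and genes of fumarate handling 2 and 3 of 13 (3 and 3). In iron and haem metabolism, limma called 0 of 17 genes, with 3 at an unadjusted p below 0.05, 0 called by edgeR or DESeq2 and 3 under the block. When DMF replicate 3 was left out, the NF-kB, class I and proteasome lists had 0 calls, the zinc, heat shock and arginine lists 1 higher each and fumarate handling 1 and 1. When MMF replicate 3 was left out, class I and the proteasome had 0 calls, the NF-kB list 0 and 2, the zinc list 2 and 1, the heat shock and arginine lists 1 higher each and fumarate handling 1 and 1. The zinc list also had 1 higher when DMF replicate 2 was left out, and the arginine list and fumarate handling 1 higher when DMF replicate 2 or MMF replicate 1 was.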
